A study of Mus musculus with 19 samples.

Results

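The 7 genes described here, Gbp2, Gbp3, Gbp6, Irgm1, Irgm2, Igtp and Iigp1, encode interferon-inducible GTPases of the guanylate-binding protein (GBP) and immunity-related GTPase (IRG) families. They were taken as every probe on the arrays that carries one of these names or the gene's RefSeq accession, which gave 9 of 41174 probes and 7 of 27793 named genes. They were chosen by their signal on these arrays, above all the difference between HDAC4&5 and WT, with values in both comparisons already known, so those values are given as a description, with no test.

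GBPs and IRGs are made by most cell types when interferon binds its receptor and the transcription factors it activates bind the promoters of the GTPase genes. The proteins gather on the membrane of vacuoles that hold bacteria or parasites and help to break it. Irgm1, Irgm2 and Igtp (also called Irgm3) are the regulatory IRGs, which keep the effector IRGs such as Iigp1 (also called Irga6) inactive on the cell's own membranes. In skeletal muscle they are known mainly as part of the response to infection and inflammation.

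RNA was measured on 1-colour mouse arrays, 1 per sample, in 2 settings. C2C12, a mouse myoblast line, was made into stable lines with plasmids for human HDAC4 and human HDAC5 (HDAC4&5, 6 arrays) or with the empty plasmids (WT, 6 arrays), both kept under 500 µg/ml of hygromycin B and geneticin and harvested 48 h after seeding. The overexpressing cells were studied as myoblasts because they did not form myotubes, and whether a line is 1 clone is not given in the sources used here. Soleus muscle came from male db/db (db +/+) mice, which lack the long leptin receptor (db, 4 arrays), and from db -/+ littermates (Con, 3 arrays), all C57BL6J, 12 weeks old and fasted for 5 h. The comparisons ask which transcripts differ when the class IIa deacetylases HDAC4 and HDAC5 are overexpressed, and which differ in the muscle of obese, diabetic mice.

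Values are log2 of a spot's processed signal over the 75th percentile of its array, so that 0 is the 75th percentile. A level of 1 probe cannot be set against that of another probe. The mouse Hdac4 probe differed by -0.05 between HDAC4&5 and WT and the Hdac5 probe by 1.42 (SE 0.27), and the transgenes are human, so these probes check the labels only in part. Of 7 listed myoblast markers, 5 were well above background on every WT array, Des, Cdh15, Myod1 and Myog among them. Myf5 and Pax7 were not well above it on any C2C12 array, nor were Myod1 and Myog on any HDAC4&5 array. All 5 tested markers were lower in HDAC4&5 cells (limma, adjusted p under 0.05), as were 32.8% of all genes. All 8 soleus muscle markers were well above background on all soleus arrays. The 4 soleus arrays of slide 4 were dimmer, with a 75th percentile of 153 to 232, than the 3 of slide 5, with 555 to 686, and both slides held both groups.

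The stretches just upstream of the start sites are shown first, because the interferon-response motifs in them are what the 7 genes are known for. RefSeq promoters (GRCm38.p6) were listed for 5 of the 7 genes. Each line gives the 100 bases before a start site, 5′ to 3′ on the gene's strand, and capitals mark matches to an ISRE-type motif, GAAANNGAAA, or a GAS-type motif, TTCNNNGAA, on either strand. Both kinds of motif are bound by transcription factors that interferon signalling activates or induces.
Gbp2, chr3:142620563-142620662, plus strand: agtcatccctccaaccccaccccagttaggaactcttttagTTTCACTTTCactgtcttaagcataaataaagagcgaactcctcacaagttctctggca
Gbp3, chr3:142559944-142560043, plus strand: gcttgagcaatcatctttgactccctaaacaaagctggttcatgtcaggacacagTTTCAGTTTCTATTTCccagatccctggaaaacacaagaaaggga
Irgm1, chr11:48871421-48871520, minus strand: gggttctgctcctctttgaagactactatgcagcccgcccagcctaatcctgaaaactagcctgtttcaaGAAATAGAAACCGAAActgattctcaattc
Irgm2, chr11:58214877-58214976, plus strand: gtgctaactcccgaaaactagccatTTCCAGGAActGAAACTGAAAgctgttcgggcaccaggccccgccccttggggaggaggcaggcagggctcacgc
Igtp, chr11:58199456-58199555, plus strand: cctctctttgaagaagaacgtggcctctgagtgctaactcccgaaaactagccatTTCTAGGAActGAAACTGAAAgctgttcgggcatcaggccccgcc

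All 5 genes had an ISRE-type match in the window of 300 bases (250 before to 50 after the start), against 3.44% of the 32851 promoter windows of RefSeq. Gbp3 and Irgm1 each had a pair of overlapping matches. A second listed start of Gbp3 had none. Irgm2 and Igtp also had a GAS-type match, which 8.30% of all windows held. Irgm2 and Igtp were nearly the same here: shifted by 30 bases, 68 of 70 compared bases were identical. A match is a run of letters, and no binding was measured.

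All 7 genes were higher in HDAC4&5 cells than in WT cells, by 2.76 to 9.64 on the log2 scale, and in no case did the measured arrays of the groups overlap (6 against 6, and 6 WT against 5 HDAC4&5 arrays for Igtp). Over all genes the same holds often: 28.3% of 14176 tested genes were higher with no overlap, and at an adjusted p under 0.05 (limma, Benjamini-Hochberg) 69.3% were called, 36.5% higher and 32.8% lower. The size of the differences is what the 7 were chosen for: 2.93% of all genes differed by as much as or more than Irgm1, the smallest of the 7. The median of the 7 was 6.06, beside 0.05 over all genes tested, and 5.69 with the genes unmeasured in WT at their lower bound. All 7 genes passed the filter on dim probes, Gbp6 and Iigp1 in C2C12 cells through the HDAC4&5 arrays alone.

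**Figure D1:**
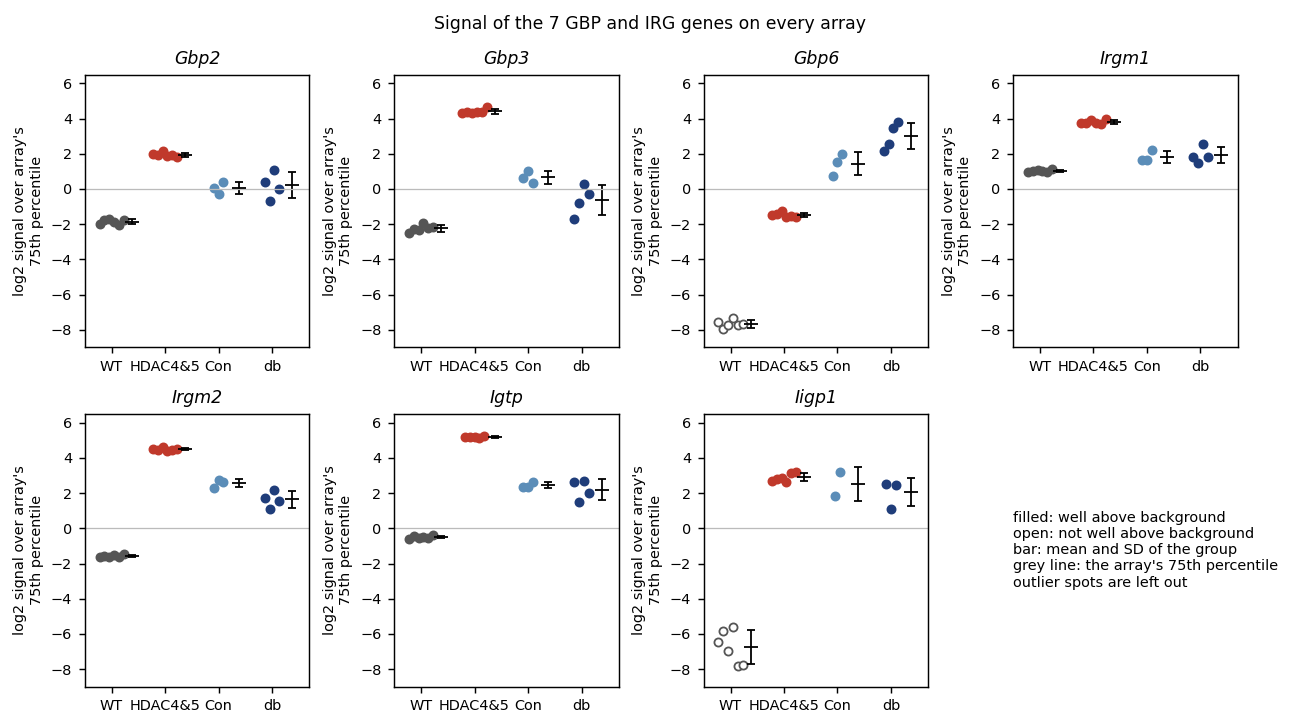
Signal of the 7 genes on each array (y axis, log2 over the array's 75th percentile) in WT and HDAC4&5 C2C12 cells and in Con and db soleus muscle. Points are arrays, filled where well above background, and bars are the group mean and SD. WT is the lowest group for all 7 genes.

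Among the GBPs, Gbp2, a prenylated GTPase that coats pathogen vacuoles, lay between -2.03 and -1.68 on WT arrays (median -1.82) and between 1.80 and 2.13 on HDAC4&5 arrays (median 1.93). The difference was 3.78 (SE 0.07), or 13.8-fold. The 2 ranges were narrow and far apart.

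Gbp3, a GTPase of the same gene cluster, ran from -2.51 to -1.92 in WT (median -2.24) and from 4.30 to 4.66 in HDAC4&5 (median 4.37). Its difference of 6.63 (SE 0.09), or 99.3-fold, was the largest among the 5 genes measured in both groups. Of the HDAC4&5 arrays, 5 sat within 4.30 to 4.40.

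Gbp6, of the GBP cluster on chromosome 5, was not well above background on any of the 6 WT arrays (-7.97 to -7.34) and was well above it on all 6 HDAC4&5 arrays, at -1.61 to -1.27 (median -1.50). It was at least 18.7-fold higher in HDAC4&5 cells. As for the other genes given with "at least", the WT level was set to the dimmest detected probe of each WT array. The measured means were -7.67 and -1.49. The bound is 4.23 on the log2 scale. Like the bounds of the other genes, it holds for the processed signal only: with normexp background correction the Gbp6 difference was 2.55.

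Of the regulatory IRGs, Irgm1 had the smallest difference of the 7. It ran from 0.96 to 1.14 in WT (median 1.01) and from 3.67 to 3.95 in HDAC4&5 (median 3.76). The difference was 2.76 (SE 0.06), or 6.78-fold. A second Irgm1 probe gave 2.67, with 2 HDAC4&5 arrays left out as outlier spots, and the remaining probe was not well above background on any of the 19 arrays.

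Irgm2 ran from -1.65 to -1.48 in WT (median -1.59) and from 4.39 to 4.60 in HDAC4&5 (median 4.48). Its difference was 6.06 (SE 0.05), or 66.9-fold. Neither group spread by more than a small part of the gap between them.

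Igtp ran from -0.59 to -0.38 in WT (median -0.51) and from 5.12 to 5.27 in HDAC4&5 (median 5.18, n = 5, with replicate 6 left out as an outlier spot). The difference was 5.69 (SE 0.05), or 51.5-fold. Irgm2 and Igtp, whose upstream stretches are printed above, thus differed between the groups by 6.06 and 5.69.

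Iigp1, the effector IRG, was not well above background on any WT array (-7.81 to -5.58) and ran from 2.65 to 3.22 on the HDAC4&5 arrays (median 2.84). It was at least 377-fold higher in HDAC4&5 cells. The measured means were -6.74 and 2.90. This bound, 8.56 on the log2 scale, also stood above the difference of 6.33 with normexp background correction.

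Each C2C12 slide held both groups. For the 5 genes measured in both groups the differences within the 3 slides were 3.76 to 3.82 for Gbp2, 6.48 to 6.73 for Gbp3, 2.75 to 2.78 for Irgm1, 6.06 to 6.07 for Irgm2 and 5.68 to 5.72 for Igtp. Leukocyte RNA was looked for beside this: of 15 leukocyte markers, 8 were not well above background on any HDAC4&5 array, Ptprc, Csf1r and Cd3g among them, and the summed linear level of the list was 5.98 to 7.18 there and 2.12 to 2.56 in WT, in units of the 75th percentile. Lyz2 was at least 4.22-fold higher in HDAC4&5 cells, Cd14 differed by 1.63 and Cd68 by -0.42, and the remaining 1 of the 4 tested leukocyte markers was not called. Lyz2 passed the filter on dim probes through the HDAC4&5 arrays alone, so that the filter largely set its direction. The summed level of 6 fibroblast markers was 81.0 to 97.2 on HDAC4&5 and 38.2 to 45.9 on WT arrays. The part of these markers in the result was not tested.

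The rest of both families was not used to choose the 7 genes, but its list too was drawn up with earlier results of these data known. Of 27 further GBP, IRG and related GTPase names, 14 had a probe and 10 were tested in C2C12 cells; 8 rose in HDAC4&5 cells and 2 fell (limma, adjusted p under 0.05, background 36.5% and 32.8%). Of these 10, Gbp4, Gbp5, Gbp7 and Gbp9 passed the filter on dim probes through the HDAC4&5 arrays alone and 9930111J21Rik2 through the WT arrays alone, so that the filter largely set their direction and nothing is read from the counts. The other 5, Gbp2b, Tgtp1, Gvin1, Ifi47 and Irgq, were well above background on all 12 arrays. Gbp8, Gm12250, Irgc1 and Gm4951 had a probe but were not well above background on all arrays of either C2C12 group. Among the GBPs the differences were those of Gbp2b (the mouse Gbp1, 3.47, SE 0.07), Gbp5 (2.77, SE 0.09, well above background on 2 of 6 WT arrays) and Gbp9 (6.42, SE 0.20, on 2 of 6 WT arrays), with Gbp4 at least 15.3-fold and Gbp7 at least 34.8-fold higher. The adjusted p of Gbp2b, the only one of the 5 measured on all arrays, was 8.63e-14. A second Gbp9 probe, which also lists Gbp10, Gbp6 and Gbp4, was not used.

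Among the other IRGs and related GTPases, Tgtp1, an effector IRG whose probe is shared with Tgtp2, rose by 4.24 (SE 0.08, adjusted p = 4.42e-14, limma). Gvin1, a very large interferon-induced GTPase, rose by 2.44 (SE 0.09, adjusted p = 3.01e-11) and Ifi47, the effector IRG Irgd, by 1.91 (SE 0.05, adjusted p = 1.55e-12). The 2 that fell were Irgq, a diverged relative without a known interferon response, with -1.98 (SE 0.06, adjusted p = 6.76e-12), and 9930111J21Rik2, with -1.95 (SE 0.23, adjusted p = 6.17e-06), well above background on 2 of 6 HDAC4&5 arrays. Further probes had the same sign, at 2.03 for Tgtp1, 2.42 and 2.52 for Gvin1 and -1.17 for Irgq. Neither Irgq nor 9930111J21Rik2 had an ISRE-type or GAS-type match in its RefSeq window, and neither had Ifi47, which rose. Of the 10 other family genes with a listed promoter, 7 had an ISRE-type and 5 a GAS-type match.

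**Figure D2:**
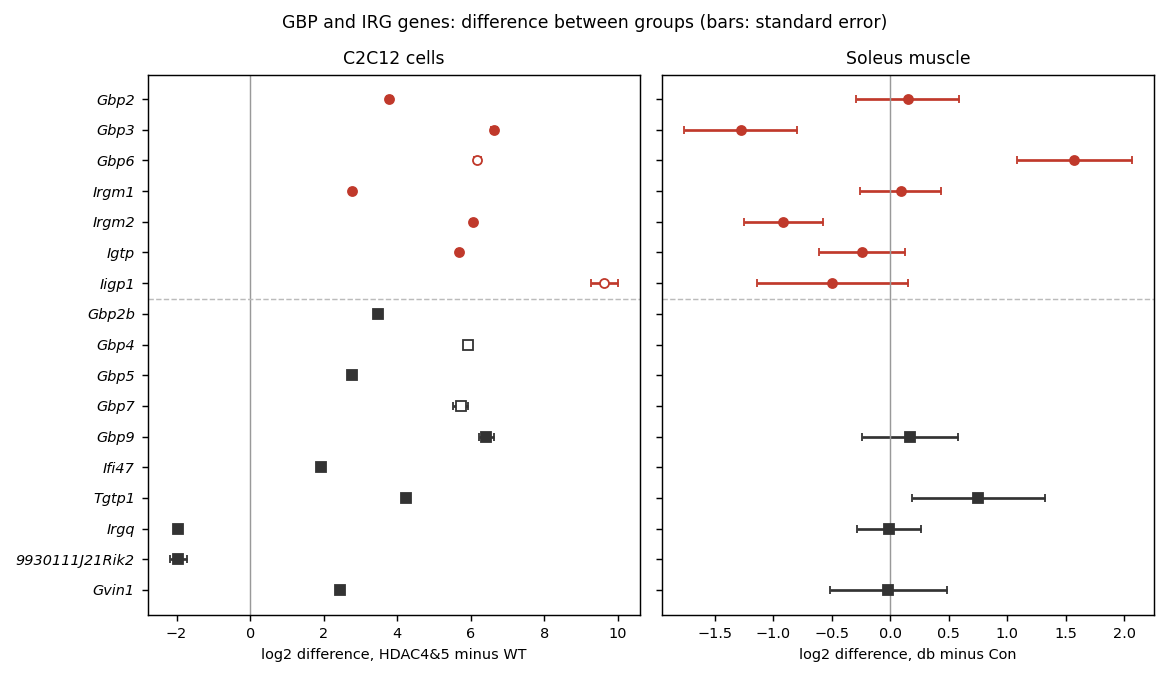
Difference between groups for the 7 genes (circles, above the dashed line) and the other GBP, IRG and related genes tested (squares), on the log2 scale with the standard error from limma. Open symbols mark genes not well above background on any WT array. They are drawn at the measured difference, which lies above the lower bound given in the text. The C2C12 axis runs from about -2 to 10, the soleus axis only from about -2 to 2.

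The GBP and IRG genes lie in clusters, and the differences of their tested neighbours within 500 kb, looked up after the values were seen, are given beside them. Around the chromosome 3 cluster (Gbp5, Gbp7, Gbp3, Gbp2b and Gbp2), where the family differed by 2.77 to 6.63, the 4 neighbours differed by -3.58 (Pdlim5), 1.85 (Kyat3), 0.07 (Gtf2b) and 0.21 (Pkn2). Around the chromosome 5 cluster the 5 neighbours ran from -0.54 to 1.04. Around Igtp and Irgm2 on chromosome 11 the 11 neighbours ran from -4.23 to 1.18, and around Irgm1 the 5 neighbours from -0.32 to 0.33. On mm9, the build of the files, the probes lie at chr3:142300719-142300778 (Gbp2), chr3:142236072-142236131 (Gbp3), chr5:105700081-105700140 (Gbp6), chr11:48679069-48679128 (Irgm1), chr11:58036064-58036123 (Irgm2) and chr11:58020927-58020986 (Igtp).

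Of 6 tested interferon and receptor genes 2 rose and 4 fell, with a median of -0.21, beside the 36.5% and 32.8% of all genes. Ifnb1, the beta interferon gene, was at least 3.76-fold higher in HDAC4&5 cells, at a low level of -3.80. It was not well above background on any WT array and passed the filter on dim probes through the HDAC4&5 arrays alone. The filter thus largely set its direction. Of the receptor chains Il10rb fell by 0.90 on the log2 scale (SE 0.07), Ifnar1 by 0.56 (SE 0.05) and Ifngr2 by 0.22 (SE 0.05), Ifngr1 fell too, and Ifnar2 rose by 0.15 (SE 0.06). Of the kinases and transcription factors 7 of 11 rose and 3 fell, beside 36.5% and 32.8% of all genes. Irf7, the factor of the interferon amplification loop, rose by 6.39 (SE 0.11), Irf9 by 2.55 (SE 0.06) and Batf2 by 2.10 (SE 0.17). The highest adjusted p of these 3 was 1.37e-07.

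Of 7 inhibitors of interferon signalling 4 rose and 2 fell, again beside 36.5% and 32.8% of all genes. Usp18, which removes ISG15 and blocks the receptor, rose by 9.29 (SE 0.36), Socs1 by 1.43 (SE 0.10) and the phosphatase Ptpn2 by 1.19 (SE 0.07). Cish fell by 2.24 on the log2 scale. Other interferon-gamma induced genes rose in 14 of 17 cases and fell in 3 (median 1.98), beside the 36.5% and 32.8% of all genes. Among these the immunoproteasome subunit Psmb8 rose by 9.78 (SE 0.45), the chemokine Cxcl10 by 7.05 (SE 0.17) and Parp14 by 5.78 (SE 0.06). The peptide transporter Tap1 was at least 48.5-fold higher. Tap1 was not well above background on any WT array and passed the filter on dim probes through the HDAC4&5 arrays alone.

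All 15 antiviral effectors of the interferon-alpha/beta response rose, with a median of 7.97, beside 36.5% of all genes. Oas2 rose by 10.33 (SE 0.46), Oas1a by 9.22 (SE 0.27) and Ifit3 by 8.75 (SE 0.27), and Ifi44 was at least 274-fold higher. Cmpk2, Ifi44 and Mx1 were not well above background on any WT array and passed the filter on dim probes through the HDAC4&5 arrays alone. The filter thus largely set their direction. Mx1 was at least 4.76-fold higher.

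Genes for the proteins that place GBPs and IRGs on membranes were tested as well. Of 14 genes for ATG8 conjugation and ubiquitin partners, which steer the GTPases to vacuoles, 6 rose, 4 fell and 4 did not pass, with a median of 0.19, shares near the 36.5% and 32.8% of all genes. Map1lc3a fell by 2.11 on the log2 scale (SE 0.05), Gabarapl1 rose by 0.61 (SE 0.18) and Ulk1 fell by 0.51 (SE 0.10). Gabarapl2 fell too, with measured means of -5.00 in WT and -5.56 in HDAC4&5 cells, and was not well above background on any HDAC4&5 array. It passed the filter on dim probes through the WT arrays alone, so that the filter largely set its direction. Of 6 prenylation enzymes, which lipidate GBPs with a CaaX end, 2 rose (Pggt1b by 1.04, Fntb by 0.68), and Icmt fell by 1.30. This again stands beside 36.5% and 32.8% of all genes, so nothing is read from the counts. Of 5 inflammasome genes, downstream of GBPs in infected cells, Casp1 rose by 3.07 (SE 0.08), Casp4 by 2.19 (SE 0.05) and Gsdmd by 0.93 (SE 0.06), and Il18 fell by 0.33, beside the same shares of all genes.

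**Figure D3:**
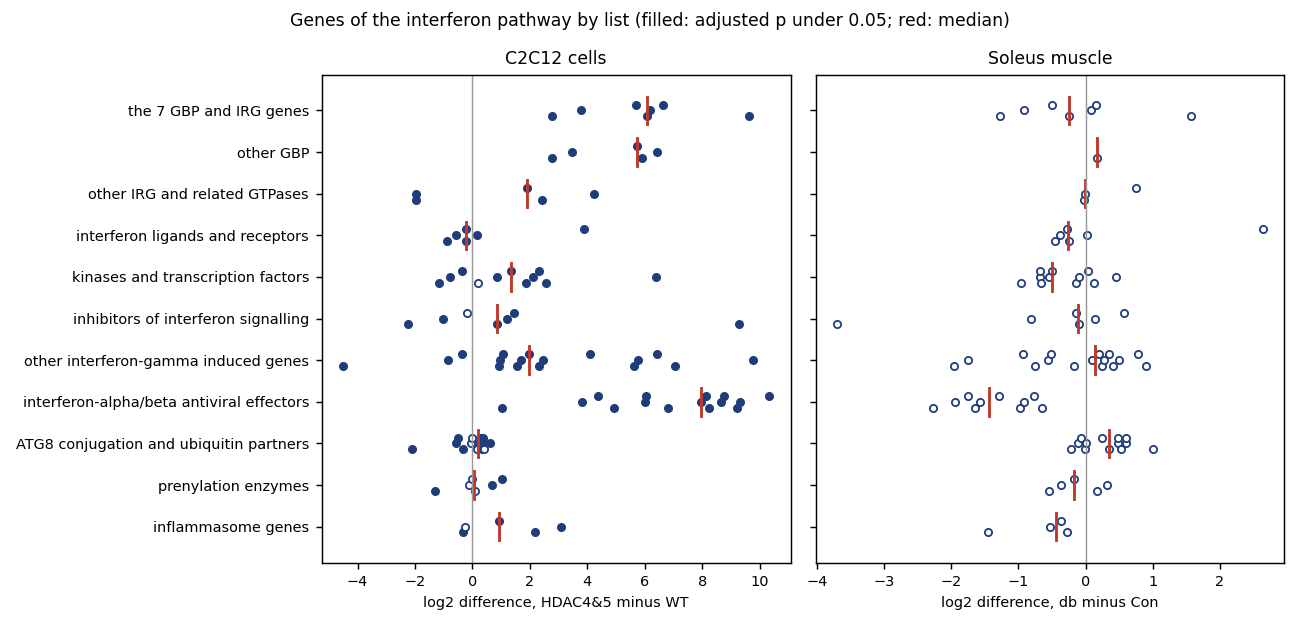
Difference between groups on the log2 scale for each tested gene of the pathway lists, HDAC4&5 minus WT on the left and db minus Con on the right, with axes of different length. Filled points passed an adjusted p of 0.05 in limma and red lines are the median of a list. In soleus muscle no listed gene passed.

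In soleus muscle the 7 genes did not differ in 1 direction. Gbp6 was higher in db mice, Gbp3 and Irgm2 were lower, and the arrays of the groups did not overlap for these 3. The other 4 overlapped. Over all 13100 tested genes 5.12% were higher and 5.26% lower with no overlap, and 0.00763% (1 gene) passed at an adjusted p under 0.05 (limma), while 6.32% did so unadjusted, 2.98% higher and 3.34% lower. None of the 7 was the gene that passed. Their median difference was -0.24, beside -0.02 over all genes. All 7 were well above background on all 7 soleus arrays. In bulk muscle fewer cells of a type and less RNA per cell cannot be told apart.

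Gbp6 stood at 0.75, 1.55 and 2.01 on the Con arrays and at 2.18, 2.58, 3.45 and 3.83 on the db arrays. Every db array lay above every Con array, by as little as 0.17 between the nearest 2. The difference was 1.57 (SE 0.49), or 2.97-fold, with 1.23 and 1.62 within the 2 slides and 1.39 with the slide as a block.

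Gbp3 stood at 0.64, 1.01 and 0.32 on the Con arrays and at -1.70, -0.80, 0.30 and -0.30 on the db arrays. The nearest arrays of the groups, at 0.32 and 0.30, all but touched. The difference was -1.28 (SE 0.48), that is 2.43-fold lower in db mice, and it was -2.08 within slide 4 and -0.32 within slide 5.

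Irgm2 stood at 2.29, 2.73 and 2.65 on the Con arrays and at 1.72, 1.07, 2.20 and 1.56 on the db arrays. All db arrays lay below all Con arrays. The difference was -0.92 (SE 0.34), or 1.89-fold lower, with -1.11 and -0.77 within the slides. All 8 endothelial markers tested were lower in db muscle as well, by a median of -0.60 (-0.49 with the slide as a block). Of these 8, 3 had an unadjusted p under 0.05 (limma), against 3.34% of all genes in that direction. None passed the adjusted p. The summed level of the endothelial markers was 44.7 to 53.3 on Con and 22.4 to 42.9 on db arrays. The 7 fibroblast markers had a median difference of -0.58 (-0.25 with the slide as a block). The summed level of the 5 without outlier spots was 252 to 379 on Con and 103 to 222 on db arrays. The leukocyte markers had a median difference of 0.00, with 36.9 to 120 on Con and 42.0 to 109 on db arrays. The part of endothelial and fibroblast RNA in the GTPase values was not tested.

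Igtp, whose upstream stretch nearly matches that of Irgm2, stood at 2.33, 2.36 and 2.64 on the Con arrays and at 2.60, 1.48, 2.71 and 2.02 on the db arrays, a difference of -0.24 (SE 0.37). Irgm1 stood at 1.63, 1.63 and 2.20 and at 1.82, 1.45, 2.53 and 1.83, a difference of 0.09 (SE 0.34). A second Irgm1 probe gave -0.34, with db replicate 3 left out as an outlier spot, so the 2 probes differed in sign. Gbp2 stood at 0.05, -0.26 and 0.42 and at 0.42, -0.66, 1.10 and 0.01, a difference of 0.15 (SE 0.44). The groups overlapped for all 3 genes, and each difference was under its standard error.

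Iigp1 had an outlier spot on Con replicate 2 and on db replicate 3. It stood at 1.85 and 3.22 on the other Con arrays and at 2.52, 1.12 and 2.47 on the other db arrays, a difference of -0.50 (SE 0.65). The 2 Con arrays were farther apart than the group means. Without Con replicate 3 the difference was 0.19, within slide 4 it was -0.03 and within slide 5 -0.75.

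**Figure D4:**
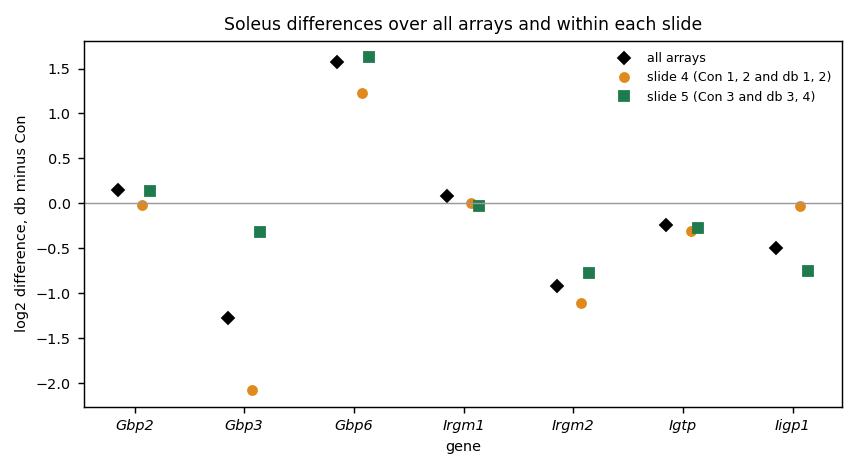
Difference db minus Con on the log2 scale for the 7 genes over all soleus arrays (diamonds) and within slide 4 (circles) and slide 5 (squares). Gbp6 is above 0 and Gbp3, Irgm2, Igtp and Iigp1 below 0 on both slides, with Gbp3 between -0.32 and -2.08.

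The other family members tested in soleus muscle gave no call. Gbp9 differed by 0.17 (SE 0.41), Tgtp1 by 0.75 (SE 0.57), Irgq by -0.01 (SE 0.27) and Gvin1 by -0.02 (SE 0.50), and the lowest adjusted p of the 4 was 0.947 (limma). The second Gbp9 probe, which also lists Gbp10, Gbp6 and Gbp4, differed by 1.54, with 1.25 and 1.49 within the slides. On that probe 2 of 3 Con and 4 of 4 db arrays were well above background, and the groups overlapped. Gbp2b, Gbp4, Gbp5, Gbp7, Gbp8, Ifi47, Gm12250, Irgc1, Gm4951 and 9930111J21Rik2 were not well above background on all arrays of either soleus group.

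None of the pathway lists had a gene past the adjusted p in soleus muscle. The 10 antiviral effectors tested all had a difference below 0 (median -1.43), and 6 of them, Bst2, Cmpk2, Isg15, Oas1a, Oasl1 and Rsad2, had an unadjusted p under 0.05, against 3.34% of all genes in that direction. Oas1a differed by -1.75 (SE 0.35, adjusted p = 0.295) and Rsad2 by -2.27 (SE 0.73, adjusted p = 0.619). The other interferon-gamma induced genes had a median of 0.15 (-0.11 with the slide as a block), with 3 of 16 lower and 0 higher at an unadjusted p under 0.05. Kinases and transcription factors had a median of -0.51 and the receptors and ligands of -0.26. Of the 6 receptor and ligand genes tested, which ran from -0.45 to 2.64, 1 was higher and 0 were lower at an unadjusted p under 0.05. Over all genes 2.98% were higher at that level. The inhibitor Cish differed by -3.70 (SE 0.60, adjusted p = 0.176) and passed with the slide as a block, at -3.52 (adjusted p = 0.0384), as did 0.298% of all genes.

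Across the 4 groups WT had the lowest level for all 7 genes, and HDAC4&5 the highest for 6 of them. The genes were chosen above all for their difference between HDAC4&5 and WT, so WT below HDAC4&5 follows from the choice. No share over all genes was computed for these orders, so nothing is read from the counts. For Gbp3 and Irgm2 the order was WT, db, Con and HDAC4&5, with no overlap between neighbours. For Gbp2 and Irgm1 it was WT, Con, db and HDAC4&5, and for Igtp WT, db, Con and HDAC4&5, and in these 3 genes Con and db overlapped. For Iigp1 the order was that of Igtp, and db, Con and HDAC4&5 all overlapped their neighbours. Gbp6 alone had WT, HDAC4&5, Con and db, with no overlap: its soleus level of 1.44 (Con) stood above the -1.49 of HDAC4&5 cells. Cells and muscle lay on different slides, so that the slide and the tissue cannot be told apart in these orders.

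The genes whose pattern over the 19 arrays was most like the mean of the 7 standardised genes, out of 12257, were Osbpl10 (Pearson's r 0.99), Tlr7 (0.99), Gbp7 (0.99), Epha7 (0.99) and Rbm43 (0.99). All arrays of a group share their treatment and the groups lie far apart, so this r follows the group means. With group means subtracted the 5 nearest were Med24 (0.94), Ezh2 (0.94), Lpcat1 (0.93), Tusc2 (0.92) and LOC100503807 (0.92), which differed between HDAC4&5 and WT by -0.12 to 0.32. The points share slides and array brightness, so these are descriptions only.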

How the data were processed

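The authors scanned 19 arrays with Agilent Feature Extraction 9.5.1.1 (submitters' processing notes and file headers), and deposited the intensity of each spot: a processed intensity with background and spatial trend removed but no scaling across arrays, and mean and background intensities. RNA input was 100 ng, labelled with Cy3. The authors also deposited a matrix with a ratio per probe and array; for 13 of 19 arrays the matrix equalled the array's own scanner file times 1 factor (within 0.01, log2), medians per array were 0.932 to 0.989, and its scale, filter and, for the remaining soleus columns, the source stay unknown, so it was used by group, as an alternative.

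Values here are log2 of the processed intensity minus log2 of the array's 75th percentile. Control and outlier spots were left out and spots of a probe averaged. A probe was kept where all arrays of either group compared lay well above background, with 1 probe per gene (highest mean). Names followed RefSeq accessions for 27198 of 41174 probes, and 13976 kept the file's name. Groups were compared with limma 3.58.1 (lmFit, eBayes) in R 4.3.3 with data.table (version 1.17.8), separately for cells and muscle, at a Benjamini-Hochberg adjusted p of 0.05 over all genes. The steps were tested on simulated data.

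The members and lists were chosen with earlier results of these data known. All 7 genes, all tested GBP and IRG genes, and up to 4 called genes per other list with the largest difference are named, except 1 gene, counted within its list, whose result is not reported here; genes of the marker lists, the chromosomal neighbours and the soleus antiviral genes were named after values were seen. Arrays were grouped by the labels; the paper gives 3 biological replicates per group, fewer than most groups have arrays, so some arrays may share a culture and p-values measure only the spread between these arrays, which may be technical. Replicates correlated at 0.831 or more. Arrays with the same replicate number deviated together (correlation across genes 0.186 to 0.547 for 6 C2C12 pairs, 0.426 to 0.690 for 3 soleus pairs), and so did other arrays of the same slide (0.193 to 0.528 and 0.333 to 0.743), so the number carries the slide. The number of arrays limits the precision.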

Additional observations from a re-analysis of the deposited data

Results flagged for a closer look

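Among 50 groups of arrays examined (WT, HDAC4&5 and db for the 7 genes and their tested relatives), 3 had 1 array far from the others, where chance alone gives about 1 in 20, or 2.5. Gbp3 on HDAC4&5 replicate 6 stood at 4.66, with the next array at 4.40. Gbp2b on HDAC4&5 replicate 3 stood at 0.0069, below the next at 0.24. Gbp5 on WT replicate 5 stood at -5.26, above the next at -5.69.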

How the results depend on the processing

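The direction of the 7 genes in C2C12 cells held under every alternative run in which they were tested. Gbp6 and Iigp1 were not tested with the deposited matrix or where both groups had to be well above background. The median of 6.06 over the 7 genes was 5.86 with quantile normalization and 5.44 with normexp and an offset of 50. For the other 5 genes alone the median was 5.54 with the deposited matrix and 5.69 where both groups had to be well above background. That filter also left 5 of the 10 calls among other GBP and IRG genes (fewer genes tested). With normexp Gbp6 differed by 2.55 and Iigp1 by 6.33. The count of called genes was 7271 to 10896. In soleus muscle the 1 called gene became 0 with normexp, the deposited matrix or both groups well above background, 2 with quantile normalization or the methods' t-test, 39 with the slide as a block and 828 at an unadjusted p under 0.05; leaving out 1 array gave 0 to 2 (0 without Con replicate 1 or 2 or db replicate 2, 3 or 4, and 2 without Con replicate 3). The soleus median of -0.24 was 0.20 with the matrix, 0.11 with the replicate block and -0.41 to 0.19 with 1 array left out (0.19 without Con replicate 3, 0.00 without db replicate 2). Gbp6 stayed above 0 (1.23 to 1.86) and Irgm2 (-1.11 to -0.68) and Gbp3 (-2.08 to -0.32) below 0, Gbp3 at -0.92 without db replicate 1 and -1.59 without db replicate 3. Gbp2, Irgm1, Igtp and Iigp1 changed sign in 3, 5, 1 and 3 of 17 alternatives: Gbp2 was -0.14 and Irgm1 -0.12 without db replicate 3, Igtp 0.00 without db replicate 2. With the replicate number as a block, which drops db replicate 4, Iigp1 was 0.67 (1 pair left after outlier spots) and 10762 C2C12 genes were called; pairing changed no other call among the results counted here. The causes were not tested. Levels near background limit Gbp6 and Iigp1 in WT cells to a bound.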
